A study of Mus musculus with 6 samples.

Results

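The genes described here are the core of the Notch pathway chosen by symbol: the receptors Notch1, Notch2, Notch3 and Notch4, the ligands Jag1, Jag2, Dll1 and Dll4, and the target genes Hey1 and Hey2. They are 10 of the 49315 genes in the deposited count table, and all 10 had enough reads to be tested, among 14370 genes in all. The samples were mid-ventricular heart tissue of adult mice, with 3 libraries labelled WT and 3 labelled TET2KO, a knockout of Tet2 specific to endothelial cells. Tet2 encodes a dioxygenase that oxidises 5-methylcytosine in DNA. Mice of both groups had received Angiotensin II, a vasoconstrictor peptide, at 1.0 mg/kg/day for 28 days from subcutaneous osmotic minipumps, so there was no group without the peptide. The sources that were used do not name the promoter driving the deletion, the deleted exons or the sex of the mice. The labels give the cell type as cardiac muscle tissue, and the samples within a group are biological replicates per the design text.

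Notch receptors are membrane proteins that bind ligands of the Jagged and Delta-like families on a neighbouring cell. Binding lets the metalloprotease ADAM10 and then gamma-secretase cut the receptor, and its intracellular part joins RBPJ and Mastermind proteins in the nucleus to switch on genes of the HEY and HES families. In blood vessels, Notch1, Notch4, Dll4 and Jag1 are known from endothelial cells, where the pathway takes part in arterial identity and sprouting, and Notch3 is known from pericytes and smooth muscle cells.

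Poly(A)-selected RNA was sequenced as pairs of 150 nt, and the libraries held 22124844 to 30418909 counted reads. Levels are given as CPM, the reads of a gene scaled for library size with TMM factors, with mean ± SD over n = 3 libraries per group, and log2 fold changes as TET2KO over WT ± SE from edgeR's quasi-likelihood test with Benjamini-Hochberg adjustment over all tested genes at 0.05. Tet2 itself went against the label. It was at 3.90 ± 0.707 CPM in WT and 11.0 ± 3.35 CPM in the libraries labelled TET2KO, a log2 difference of 1.49 ± 0.29 (edgeR adjusted p = 0.00652). Fold changes across all genes followed transcript length: the median was -1.29 in the shortest decile of transcripts and 1.38 in the longest decile, which starts at 6549 nt. For this reason the difference of each receptor, ligand and target is also given after a smooth trend on transcript length and GC content was removed from every library, called the trend-removed value. For Tet2 it was 0.27 ± 0.17 (edgeR adjusted p = 0.215). Whether the labels, the deleted part of the gene or the length trend lies behind the level of Tet2 cannot be told apart here, and every direction given below is that of the labels. TET2KO replicate 2 lay closer to WT than the other TET2KO libraries did. Its log2 CPM correlated across genes with that of WT replicates 1, 2 and 3 at r = 0.958, 0.968 and 0.955. With TET2KO replicates 1 and 3 the correlations were r = 0.928 and 0.959, and genes are not independent replicates.

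The 4 receptors and the 4 ligands were all higher in the libraries labelled TET2KO, and Hey1 and Hey2 did not pass the test in either direction. Notch3 showed the largest difference of the 10 genes, 7.91-fold, and Dll4 the smallest of the 8 called genes, 2.05-fold. Those 8 of 10 compare with 62.9% of all tested genes called in either direction, 33.4% higher and 29.4% lower, and with 72.5% called higher in the longest decile of transcripts, where all 4 receptors fall. The median log2 fold change was 2.56 for the receptors, 1.08 for the ligands and -0.25 for Hey1 and Hey2, against 0.046 for all genes. After the length and GC trend was removed, 0 of the 10 were called by edgeR in either direction, whereas 46.2% of all genes were, 21.9% higher and 24.3% lower, and the median of the 10 was 0.004. At an unadjusted p under 0.05, 0 of the 10 passed in that fit, and no other tool was run with the trend removed. With the merged length of all exons of a gene in place of its longest transcript, the median of the 10 was 0.34. That fit called 1 of the 10, and 7228 of 14341 genes in all. As counted, limma-voom called 3 of the 8 (Notch4, Jag2 and Dll4) and not Notch1, Notch2, Notch3, Jag1 or Dll1. Leaving out WT replicate 3 left 4 calls, and leaving out WT replicate 1, WT replicate 2, TET2KO replicate 1 or TET2KO replicate 3 left 5 each. Notch3, Notch4, Jag2 and Dll4 passed in 6 of 6 such fits. Without TET2KO replicate 2, the same 8 genes were higher and Hey1 was lower as counted, where 75.1% of all genes were called, 39.8% higher and 35.3% lower. Without that library and with the trend removed, calls were 3 higher (Notch1, Notch3 and Hey2) and 2 lower (Dll4 and Hey1), where 58.3% of all genes were called, 27.8% higher and 30.5% lower.

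**Figure D1:**
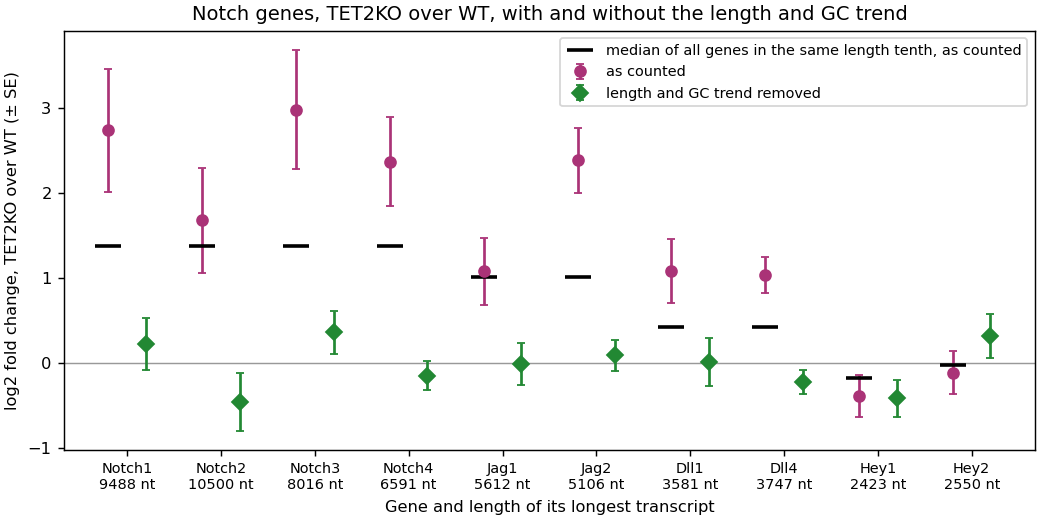
Log2 fold change of TET2KO over WT ± SE for each gene (y axis), with the length of its longest transcript under its name (x axis), as counted (circles) and with the length and GC trend removed (diamonds); black bars give the median of all genes in the same decile of transcript lengths. Notch3 and Notch1 lie highest as counted, followed by Jag2 and Notch4, and all 10 diamonds lie between -0.45 and 0.37.

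In the 10 genes, the fold change as counted tended to be larger for longer transcripts, with exceptions. Notch2 has the longest transcript and the smallest fold change of the receptors, and Jag2 (5106 nt) changed more than the longer Jag1. Spearman's rho between transcript length and log2 fold change was 0.77 over the 10 genes and 0.61 over all tested genes, and the trend-removed values gave 0.03 and 0.075; the genes share the same 6 libraries, so these are descriptions. The longest transcripts are 10500 nt for Notch2, 9488 nt for Notch1, 8016 nt for Notch3 and 6591 nt for Notch4, against 2423 nt for Hey1 and 2550 nt for Hey2. The ligands lie between these, from 3581 nt for Dll1 to 5612 nt for Jag1. Median log2 fold changes of all genes in the same length decile were 1.38 for the receptors, 1.02 for Jag1 and Jag2, and 0.42 for Dll1 and Dll4. They were -0.17 for Hey1 and -0.02 for Hey2. As counted, the 4 receptors, Jag2, Dll1 and Dll4 lay above these medians, Jag1 lay close to its own, and Hey1 and Hey2 lay below. GC content was 57.1, 53.6, 59.6 and 61.2% for Notch1, Notch2, Notch3 and Notch4, and 48.8, 61.9, 54.9 and 55.9% for Jag1, Jag2, Dll1 and Dll4. It was 52.6% for Hey1 and 45.9% for Hey2, and the median of all tested genes was 49.9%. No fit removed length without GC, so their parts in the trend-removed values were not separated. Length, GC and group effects on these genes were measured in the same libraries. The part of length and GC in the difference cannot be told apart from a real change that follows them.

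Promoters of 3 genes are shown to place genes of each role in the genome, one that holds the binding motif of RBPJ and a pair that do not. Each is the 250 bases before the start of the gene in RefSeq (GRCm38.p6), read 5′ to 3′ on the gene's strand, with GTGGGAA or its reverse complement TTCCCAC in capitals. The Hey2 window is chr10:30842784-30843033 on the minus strand, the Dll4 window chr2:119325534-119325783 on the plus strand and the Notch3 window chr17:32166891-32167140 on the minus strand.
Hey2: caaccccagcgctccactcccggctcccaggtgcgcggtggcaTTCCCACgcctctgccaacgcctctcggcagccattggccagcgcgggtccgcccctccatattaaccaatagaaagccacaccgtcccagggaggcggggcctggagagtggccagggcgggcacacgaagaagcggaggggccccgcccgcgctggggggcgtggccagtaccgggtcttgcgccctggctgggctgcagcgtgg
Dll4: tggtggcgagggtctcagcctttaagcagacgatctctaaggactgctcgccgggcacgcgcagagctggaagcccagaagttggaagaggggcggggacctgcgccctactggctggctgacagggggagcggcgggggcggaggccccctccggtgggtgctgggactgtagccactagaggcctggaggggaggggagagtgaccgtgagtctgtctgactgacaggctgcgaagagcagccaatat
Notch3: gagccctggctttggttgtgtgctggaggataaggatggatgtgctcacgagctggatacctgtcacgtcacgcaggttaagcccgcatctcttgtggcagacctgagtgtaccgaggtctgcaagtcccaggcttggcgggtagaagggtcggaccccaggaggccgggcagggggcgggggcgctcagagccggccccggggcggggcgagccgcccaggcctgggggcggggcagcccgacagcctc
The table has 10 such windows for 9 of the genes, Dll1 with a pair of them, and 1 gene (Hey2) held the motif on either strand, with its first base 207 bases before the start. Among all 32851 windows, 5.42% held it. The E-box CACGTG, a sequence that HEY proteins can bind and that reads the same on both strands, was found for 0 of the 9 genes and in 6.02% of all windows. A match in these letters is a description of the sequence and no evidence of binding in this tissue.

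Notch1 (ENSMUSG00000026923, chr2:26457903-26516663, minus strand, GRCm38), the receptor most studied in endothelium, was measured at 1.73, 2.62 and 2.63 CPM in the WT libraries and at 25.8, 2.67 and 18.1 CPM in the TET2KO libraries. The groups did not overlap, but TET2KO replicate 2 stood only just above the highest WT library. The mean rose from 2.33 ± 0.517 to 15.5 ± 11.8 CPM, a log2 fold change of 2.74 ± 0.72 (edgeR adjusted p = 0.0134). Its trend-removed value was 0.22 ± 0.31 (edgeR adjusted p = 0.571). The call was lost without WT replicate 1 (2.55, edgeR adjusted p = 0.0558) and without WT replicate 3 (2.82, edgeR adjusted p = 0.0506). Reads behind these values were 36 to 64 per WT library and 80 to 958 per TET2KO library.

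Notch3 (ENSMUSG00000038146, chr17:32120820-32166852, minus strand), the receptor of vascular smooth muscle and pericytes, stood at 3.31, 2.08 and 2.58 CPM in the WT libraries and at 34.3, 4.04 and 24.8 CPM in the TET2KO libraries. All TET2KO libraries lay above all WT libraries, with replicate 2 far below the other TET2KO libraries. The difference from 2.66 ± 0.618 to 21.0 ± 15.5 CPM gave a log2 fold change of 2.99 ± 0.70 (edgeR adjusted p = 0.00896), and the trend-removed value was 0.37 ± 0.25 (edgeR adjusted p = 0.260). Without TET2KO replicate 2 the trend-removed value was 0.59 and passed the test (edgeR adjusted p = 0.00669).

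Notch4 (ENSMUSG00000015468, chr17:34564268-34588503, plus strand), a receptor found mostly in endothelial cells, had 2.64, 2.82 and 3.19 CPM in the WT libraries and 21.6, 4.74 and 18.4 CPM in the TET2KO libraries. The WT libraries lay close together and below every TET2KO library. The rise from 2.88 ± 0.281 to 14.9 ± 8.96 CPM was 2.37 ± 0.52 on the log2 scale (edgeR adjusted p = 0.00752), and with the trend removed it was -0.15 ± 0.17 (edgeR adjusted p = 0.496).

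Notch2 (ENSMUSG00000027878, chr3:98013527-98150361, plus strand), a receptor of many cell types including smooth muscle, was at 2.98, 1.06 and 1.23 CPM in the WT libraries and 8.50, 1.83 and 6.54 CPM in the TET2KO libraries. Here the groups overlapped, because TET2KO replicate 2 lay below WT replicate 1. The log2 fold change of 1.68 ± 0.61 passed the test narrowly (edgeR adjusted p = 0.0435), from means of 1.76 ± 1.06 and 5.63 ± 3.43 CPM, and of the 6 fits that each left out a library, 2 passed, those without WT replicate 1 (2.28) and without TET2KO replicate 2 (2.12). Without any of the other libraries the value was 1.29 to 1.61 and did not pass. Its trend-removed value was -0.45 ± 0.34 (edgeR adjusted p = 0.295).

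**Figure D2:**
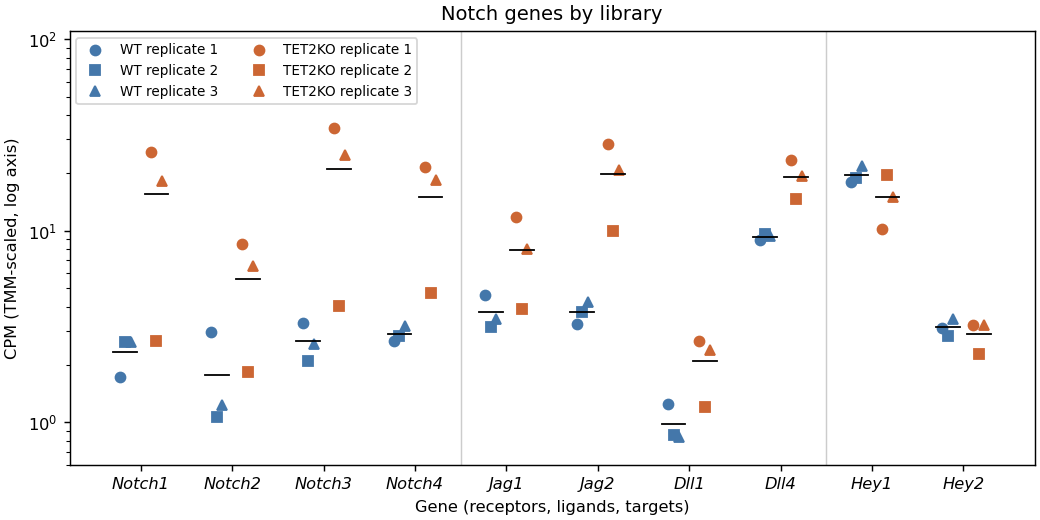
TMM-scaled CPM on a log axis (y axis) for each Notch gene (x axis) in the 6 libraries, blue for WT and orange for TET2KO, with 1 marker shape per replicate number and a black bar at each group mean. The receptors and ligands lie higher in TET2KO replicates 1 and 3 than in any WT library, TET2KO replicate 2 (orange square) lies near WT for most of them, and the groups overlap for Hey1 and Hey2.

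Of the 10 genes, 5 had groups that did not overlap (Notch1, Notch3, Notch4, Jag2 and Dll4), a count to be read against 73.5% of all tested genes, and against 38% with every TET2KO library above every WT library. TET2KO replicate 2 was the lowest TET2KO library for all 8 called genes, as it was for 96.0% of all genes called higher. The gap between TET2KO libraries differed by gene: the level in replicate 1 was 9.69 times that in replicate 2 for Notch1 and 8.49 times for Notch3, but 2.88 times for Jag2 and 1.60 times for Dll4. For Hey1 the order was turned, with replicate 1 at 0.524 times replicate 2.

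Among the ligands, Jag2 showed the largest difference. Jag2 (ENSMUSG00000002799, chr12:112907819-112929776, minus strand), a Jagged ligand, was at 3.26, 3.76 and 4.26 CPM in the WT libraries and 28.5, 9.91 and 20.7 CPM in the TET2KO libraries. Every TET2KO library, replicate 2 included, lay well above the highest WT library. The mean rose from 3.76 ± 0.496 to 19.7 ± 9.33 CPM, 2.39 ± 0.38 on the log2 scale (edgeR adjusted p = 0.00652). With the trend removed the value was 0.10 ± 0.18 (edgeR adjusted p = 0.686), and with merged exon length in place of longest transcript length it was 0.46 (edgeR adjusted p = 0.0398), the only call among the 10 genes in that fit.

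Jag1 (ENSMUSG00000027276, chr2:137081456-137116644, minus strand), the Jagged ligand of arterial endothelium and smooth muscle, was at 4.61, 3.15 and 3.47 CPM in the WT libraries and 11.7, 3.90 and 8.07 CPM in the TET2KO libraries. TET2KO replicate 2 lay within the WT range. The log2 fold change was 1.08 ± 0.40 (edgeR adjusted p = 0.045), close to the median of 1.02 for all genes in its decile of transcript lengths, and its trend-removed value was -0.01 ± 0.25 (edgeR adjusted p = 0.986). Of the 6 fits leaving out a library, 1 passed, that without TET2KO replicate 2.

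Dll4 (ENSMUSG00000027314, chr2:119325784-119335962, plus strand) is the Delta-like ligand of arterial endothelium and of the leading cells of sprouts. It had the highest mean TPM of the ligands in WT, above the next, Jag2, in 3 of 3 libraries without overlap. In TET2KO it was above Jag2 in 1 of 3 libraries. It was at 8.98, 9.65 and 9.35 CPM in the WT libraries and 23.5, 14.7 and 19.3 CPM in the TET2KO libraries, so the groups were well apart. The rise from 9.33 ± 0.336 to 19.2 ± 4.43 CPM was 1.04 ± 0.21 on the log2 scale (edgeR adjusted p = 0.00661), and the trend-removed value was -0.22 ± 0.14 (edgeR adjusted p = 0.233). Without TET2KO replicate 2 the trend-removed value passed the test as lower, at -0.33 (edgeR adjusted p = 0.036).

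Dll1 (ENSMUSG00000014773, chr17:15367354-15376872, minus strand), a Delta-like ligand also found in arterial endothelium, was the gene with the fewest reads. It had 1.25, 0.858 and 0.840 CPM in the WT libraries and 2.67, 1.20 and 2.38 CPM in the TET2KO libraries, with TET2KO replicate 2 inside the WT range. The log2 fold change was 1.09 ± 0.38 (edgeR adjusted p = 0.0378) and the trend-removed value 0.01 ± 0.28 (edgeR adjusted p = 0.969). WT replicate 3 held 15 Dll1 reads, for which counting error alone gives an exact Poisson 95% interval of 8.40 to 24.7 reads. Of the 6 fits leaving out a library, 1 passed, that without TET2KO replicate 2.

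Neither target gene passed the test. Hey1 (ENSMUSG00000040289, chr3:8663359-8667256, minus strand), a transcriptional repressor induced by Notch, was at 17.9, 18.8 and 21.9 CPM in the WT libraries and 10.3, 19.6 and 14.9 CPM in the TET2KO libraries. TET2KO replicates 1 and 3 lay below every WT library, and replicate 2 lay within the WT range. The log2 fold change was -0.39 ± 0.25 (edgeR adjusted p = 0.202) and the trend-removed value -0.41 ± 0.22 (edgeR adjusted p = 0.153). Without TET2KO replicate 2, Hey1 passed the test as lower, at -0.61 (edgeR adjusted p = 0.00574) as counted and -0.68 (edgeR adjusted p = 0.00171) with the trend removed.

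Hey2 (ENSMUSG00000019789, chr10:30832359-30842801, minus strand), the related repressor of ventricular muscle and arterial endothelium, was nearly level between the groups. It had 3.12, 2.82 and 3.47 CPM in the WT libraries and 3.21, 2.27 and 3.21 CPM in the TET2KO libraries. The log2 fold change was -0.11 ± 0.25 (edgeR adjusted p = 0.71), and the trend-removed value had the other sign, 0.32 ± 0.25 (edgeR adjusted p = 0.325). On the deposited TPM, which divide by transcript length and by a total that differs from the TMM scaling, the means of both targets had the opposite order: Hey1 was at 9.38 ± 0.757 TPM in WT and 11.0 ± 2.45 TPM in TET2KO, and Hey2 at 1.07 ± 0.0266 and 1.56 ± 0.409 TPM. The median log2 fold change of all genes was 0.046 with TMM factors, 0.474 with total library sizes and 0.414 on log2(TPM + 1). Under all 3 scalings the 8 receptors and ligands were higher in TET2KO, while the direction of Hey1 and of Hey2 flipped.

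Per transcript length, the genes formed an order in WT in which the target and the Delta-like ligand led. Mean TPM in WT was highest for Hey1, then for Dll4 at 3.82 ± 0.421, Jag2 at 1.46 ± 0.183, Hey2, and Jag1 at 1.01 ± 0.193. These 5 were followed by Notch4 at 0.562 ± 0.0481, Notch3 at 0.517 ± 0.106, Dll1 at 0.366 ± 0.0858, Notch1 at 0.258 ± 0.0644 and Notch2 at 0.255 ± 0.150 TPM. The ranges over the WT libraries of Hey1, Dll4 and Jag2 did not overlap with that of the next gene, nor did that of Jag1 with Notch4, whereas the ranges of Hey2 and Jag1, and each neighbouring pair from Notch4 down to Notch2, overlapped. In TET2KO the order was Dll4 at 12.4 ± 4.01, Jag2 at 12.3 ± 6.77, Hey1, Notch3 at 6.70 ± 5.24, Notch4 at 4.69 ± 3.05, Jag1 at 3.43 ± 1.98, Notch1 at 2.80 ± 2.26, Hey2, Notch2 at 1.33 ± 0.884 and Dll1 at 1.24 ± 0.549 TPM. All neighbours in that order overlapped.

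Shares of the receptor pool overlapped between the groups for each receptor. Of the 4 ligands, 3 took shares of the ligand pool that did not overlap, and no share was tested. In CPM, the groups did not overlap for 73.5% of all tested genes. A larger share of 1 gene leaves less for the others, so these shares are not independent. The trend was not removed from them. Trend-removed log2 fold changes were 0.10 for Jag2, -0.22 for Dll4 and -0.01 for Jag1, none past the test. Summed receptor TPM was 1.59 ± 0.152 in WT and 15.5 ± 11.4 in TET2KO, where the libraries held 25.8, 3.23 and 17.5 TPM. Within it, Notch4 took 35.7 ± 5.96% in WT and 33.4 ± 6.47% in TET2KO, Notch3 32.3 ± 3.63% and 40.6 ± 5.25%, Notch1 16.5 ± 5.18% and 16.5 ± 3.17%, and Notch2 15.5 ± 7.58% and 9.46 ± 1.99%.

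Summed ligand TPM was 6.65 ± 0.483 in WT and 29.3 ± 13.3 in TET2KO. Jag2 made up 19.1, 22.2 and 24.6% of it in the WT libraries and 44.5, 33.9 and 42.3% in the TET2KO libraries, which did not overlap. The share of Dll4 was lower in every TET2KO library, with 55.2, 60.0 and 56.8% in WT and 38.7, 52.9 and 41.5% in TET2KO. Jag1 also took a smaller share, 15.2 ± 3.10% in WT and 11.2 ± 1.75% in TET2KO. Its groups narrowly did not overlap, with 12.8% in TET2KO replicate 1 and 12.9% in WT replicate 2. Dll1 took 5.51 ± 1.30% in WT and 4.21 ± 0.406% in TET2KO, with overlap. Hey1 made up 89.7 ± 0.694% of the summed TPM of Hey1 and Hey2 in WT and 87.0 ± 5.30% in TET2KO.

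**Figure D3:**
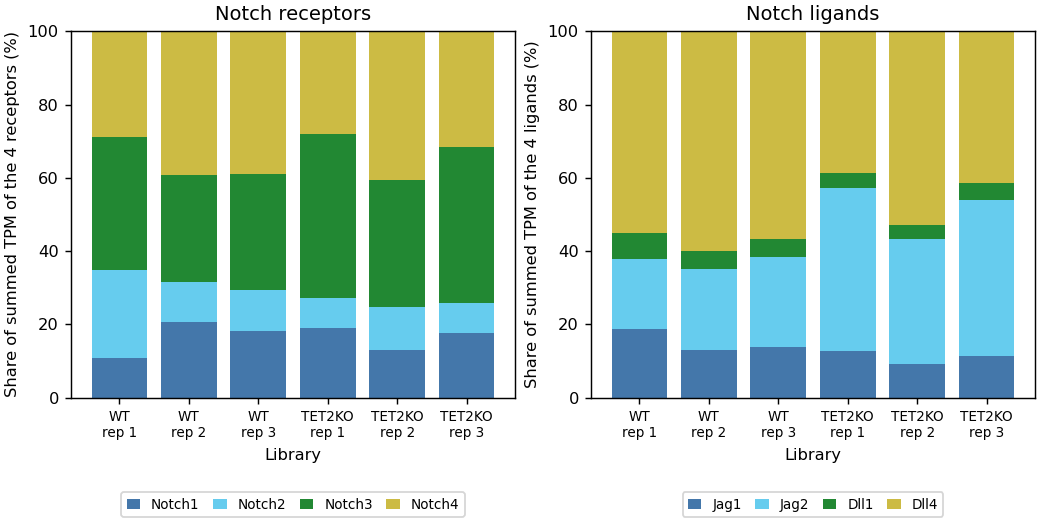
Share of the summed TPM (y axis, %) taken by each of the 4 receptors (left) and each of the 4 ligands (right) in each library (x axis). Jag2 takes 19.1 to 24.6% of the ligand total in WT and 33.9 to 44.5% in TET2KO, and the receptor shares overlap between the groups.

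A set of 5 ratios between these genes was tested within libraries, by exact 2-sided permutation tests of 3 against 3 libraries, which cannot go below p = 0.1. The ratio of Jag2 to Jag1 was 1.46 in WT and 3.61 in TET2KO, a log2 difference of 1.31 with no overlap between the groups (exact permutation p = 0.1, 0.5 adjusted over the 5 ratios). With the length and GC trend removed the difference in this ratio was 0.10, and the transcripts differ in GC content, 61.9% for Jag2 and 48.8% for Jag1. The ratio of Dll4 to Jag1 on the log2 scale was 1.93 ± 0.337 in WT and 1.99 ± 0.468 in TET2KO (exact permutation p = 0.9). The differences in the other ratios were 0.67 for Notch1 to Notch2, -0.14 for Notch4 to Notch1 and 0.30 for Hey2 to Hey1, with exact permutation p-values of 0.5, 0.7 and 0.6, all with overlapping groups. Leaving out WT replicate 1 brought the difference for Notch1 to Notch2 to 0.0075. After removal of the trend the differences were 0.68 for Notch1 to Notch2, -0.37 for Notch4 to Notch1 and 0.73 for Hey2 to Hey1, and that for Dll4 to Jag1 went from 0.055 to -0.21.

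Markers of the cells that express Notch genes moved as well. The background for each count of markers is again 33.4% of all genes higher and 29.4% lower, and 21.9% and 24.3% with the trend removed. Of 18 endothelial markers, 13 were higher and 2 lower in TET2KO, with a median log2 fold change of 1.45, and their summed level ranged from 152 to 216 TPM in WT and from 344 to 760 TPM in TET2KO. Cdh5, the adhesion molecule of endothelial junctions, rose from 12.6 ± 2.43 to 133 ± 84.5 CPM, and Pecam1, an endothelial surface protein, from 54.8 ± 4.25 to 146 ± 37.7 CPM; their trend-removed values were 2.47 ± 0.36 and 1.03 ± 0.15. The markers that fell, named after their values were seen, were Emcn, a sialomucin of capillaries and veins, from 64.3 ± 6.22 to 43.3 ± 9.18 CPM (edgeR adjusted p = 0.032), and the tight junction protein Cldn5, from 52.8 ± 8.73 to 37.3 ± 2.88 CPM (edgeR adjusted p = 0.0362). Among those that did not pass were Ushbp1, at 33.8 ± 3.12 and 38.8 ± 5.09 CPM, and Sox17, at 6.84 ± 0.805 and 9.32 ± 1.26 CPM. With the trend removed 9 of the 18 were higher and 2 lower, and the lower pair was a different one. Named after their values were seen, these were Vwf (-1.16 ± 0.21, edgeR adjusted p = 0.00463) and Ushbp1 (-0.59 ± 0.13, edgeR adjusted p = 0.0086). Neither had passed as counted. Emcn and Cldn5 did not pass with the trend removed, at 0.205 and -0.349. Of 12 mural cell markers, which pericytes and smooth muscle share, 5 were higher and 4 lower, and 4 higher and 4 lower with the trend removed. The summed TPM of the mural markers ranged from 966 to 1124 in WT and from 1029 to 1263 in TET2KO. In such bulk tissue, fewer or more cells of a type and less or more RNA per cell cannot be told apart.

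Markers of other cell classes were counted as well. Of 14 cardiomyocyte markers 7 were higher and 6 lower, and they summed to 100843 to 104035 TPM in WT and 84156 to 92299 TPM in TET2KO, the largest sum of any list. All 5 red blood cell markers were lower, with sums of 2928 to 14103 TPM in WT and 566 to 2123 TPM in TET2KO. Of 5 endocardial markers 4 were higher and 1 lower, with sums of 30.8 to 39.2 TPM in WT and 34.6 to 46.7 TPM in TET2KO. Fibroblast markers summed to 1207 to 1346 TPM and 1553 to 1751 TPM (4 of 11 higher, 5 lower), and leukocyte markers to 776 to 844 TPM and 405 to 614 TPM (2 of 7 tested higher, 1 lower). Atrial markers, of which 3 of 5 were tested (1 higher, 2 lower), summed to 12.4 TPM at most. With the trend removed, 8 cardiomyocyte markers were higher and 2 lower, 2 endocardial higher and 0 lower, and 1 fibroblast higher and 1 lower. In the same fit, 1 leukocyte marker was higher and 1 lower, 5 red blood cell markers were lower, and 1 atrial marker was lower. The atrial genes Sln and Bmp10 and the T cell gene Cd3e had too few reads to be tested, and Bmp10 was at 0 in all 3 WT libraries. Myl7, the atrial myosin light chain, had 2 to 17 reads per TET2KO library, and no marker on these lists was at 0 in all 6 libraries. The part of these cell types in the Notch differences was not tested.

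To set the Notch genes beside endothelial RNA, each gene's log2 CPM was taken relative to the mean of the 18 endothelial markers in the same library, a mean that was itself 1.24 higher in TET2KO. On this scale Hey1 and Hey2 were lower in every TET2KO library than in any WT library. Because the marker mean rose, a gene that was level in CPM is also lower on this scale. The median log2 fold change of all genes was 0.046 as counted. In CPM the groups did not overlap for 73.5% of all tested genes, and the share on this scale was not worked out. Hey1 differed by -1.67, from 0.11 ± 0.30 in WT to -1.56 ± 0.94 in TET2KO, and Hey2 by -1.36, from -2.50 ± 0.29 to -3.86 ± 0.23. Jag2 was higher without overlap, by 1.01. Each of these gave an exact permutation p of 0.1, the smallest possible with 3 against 3, and 0.275 after adjustment over 11 such comparisons.

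For the other genes the groups overlapped on that scale. Differences relative to the endothelial markers were 0.97 for Notch1, 0.29 for Notch2, 1.26 for Notch3, 0.84 for Notch4, -0.29 for Jag1, -0.26 for Dll1 and -0.23 for Dll4, with exact permutation p-values from 0.2 to 0.8. With the trend removed the differences for Notch1, Notch2, Notch3, Notch4 and Jag2 changed sign, to between -0.92 and -0.26, and those for Jag1, Dll1, Dll4, Hey1 and Hey2 were -0.59, -0.58, -0.77, -1.0 and -0.26. The exact permutation p with the trend removed was 0.1 for Hey1, 0.4 for Hey2 and 0.3 for Jag2. Relative to the 12 mural markers, whose mean was 0.51 higher in TET2KO, Notch3 differed by 1.99 without overlap (exact permutation p = 0.1, adjusted 0.275), and by 0.15 with the trend removed. The share of all genes without overlap relative to the mural markers was not worked out either.

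**Figure D4:**
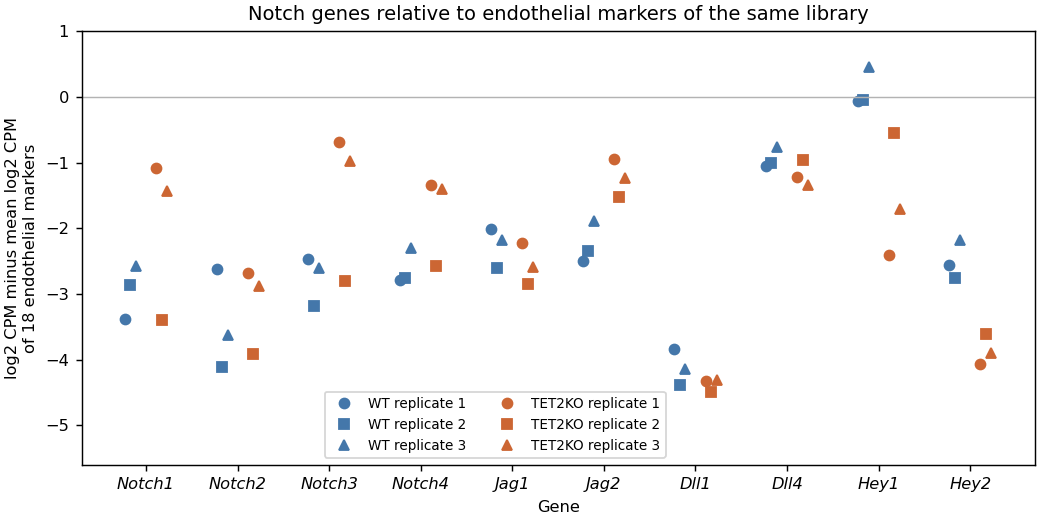
Log2 CPM of each Notch gene minus the mean log2 CPM of 18 endothelial markers in the same library (y axis), by gene (x axis), for 3 WT libraries (blue) and 3 TET2KO libraries (orange). Hey1 and Hey2 lie lower in every TET2KO library, Jag2 lies higher in each of them, and the groups overlap for the other 7 genes.

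The rest of the pathway was described from a list of 56 other Notch genes in 7 roles, of which 51 were tested. As counted, 33 rose and 4 fell and 14 did not pass, with a median log2 fold change of 1.07, where 33.4% of all tested genes were higher and 29.4% lower. With the trend removed 18 were higher and 5 lower, with a median of 0.29, where 21.9% of all genes were higher and 24.3% lower. These shares over all genes are also the background for the count of each role below, and nothing particular to a role is read from its count. Dll3, Dlk1, Dlk2, Dtx1 and Hes5 had too few reads to be tested, and Dll3, a Delta-like protein, had 0 reads in all 6 libraries.

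Genes that let the ligand-bearing cell pull on the receptor were all higher as counted, 4 of 4, and 0 of 4 with the trend removed. Mib1, the ubiquitin ligase that drives ligand endocytosis, rose from 9.74 ± 1.55 to 24.8 ± 7.71 CPM (log2 fold change 1.35 ± 0.27, trend-removed 0.28 ± 0.13). Mib2, its relative, rose by 1.60 ± 0.31 (trend-removed -0.22 ± 0.16), and Neurl1b, another ligase for ligands, by 2.94 ± 0.58 (trend-removed 0.93 ± 0.36, edgeR adjusted p = 0.0617).

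Of 5 genes for enzymes that add sugars to the receptor, 2 rose and 1 fell. Rfng, a Fringe glycosyltransferase that changes which ligands a receptor answers to, rose from 1.40 ± 0.119 to 7.10 ± 3.18 CPM (log2 fold change 2.34 ± 0.39) and rose with the trend removed too, by 1.72 ± 0.29 (edgeR adjusted p = 0.00407). Pofut1, which adds O-fucose, rose by 1.20 ± 0.27 as counted, with a trend-removed value of -0.13 ± 0.15. Poglut1, which adds O-glucose, fell from 32.2 ± 2.01 to 18.0 ± 4.48 CPM and was lower in both fits, at -0.84 ± 0.21 and -0.63 ± 0.15 (edgeR adjusted p = 0.0107 and 0.0113).

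Among the 10 receptor-cleaving genes, 6 rose and 1 fell as counted, and 7 rose and 2 fell with the trend removed. Their median was 0.68 as counted and 0.69 trend-removed. Furin, the protease that processes the receptor on its way to the surface, rose from 7.28 ± 0.301 to 54.1 ± 28.0 CPM, by 2.89 ± 0.42, and by 0.99 ± 0.14 with the trend removed (edgeR adjusted p = 0.00396). Ncstn, the nicastrin subunit of gamma-secretase, rose from 11.7 ± 0.904 to 34.5 ± 12.1 CPM, by 1.56 ± 0.28 and, trend removed, by 1.33 ± 0.22. Psenen, a small subunit of the same protease, fell by 0.64 as counted and was higher by 0.56 with the trend removed, past the test both ways (edgeR adjusted p = 0.0235 and 0.00512).

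In the nuclear complex, 4 of 7 genes rose as counted and 1 with the trend removed. Rbpj, the DNA-binding partner of the cleaved receptor, went from 15.7 ± 0.916 to 24.4 ± 4.03 CPM (log2 fold change 0.63 ± 0.18, edgeR adjusted p = 0.0163), and its value with the trend removed was 0.20 ± 0.12 (edgeR adjusted p = 0.202). The Mastermind co-activators Maml1 and Maml3 rose by 2.43 ± 0.63 and 2.09 ± 0.56, and the acetyltransferase Ep300 by 2.14 ± 0.58, and their trend-removed values lay between 0.13 and 0.47 and did not pass. Of 9 co-repressors 7 rose and 1 fell as counted, and 4 rose with the trend removed. Among them were Tle2 (2.28 ± 0.44, trend-removed 1.15 ± 0.29) and Tle3 (2.84 ± 0.58, trend-removed 0.80 ± 0.29), both Groucho-type co-repressors.

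Of 10 tested genes for trafficking, turnover and inhibition, 7 rose and 1 fell as counted, and 3 rose and 1 fell with the trend removed. Egfl7, a protein secreted by endothelial cells that can bind Notch, fell from 251 ± 28.1 to 108 ± 31.9 CPM (log2 fold change -1.21 ± 0.24, trend-removed -0.89 ± 0.16, edgeR adjusted p = 0.00654 and 0.0045). Itch, a ubiquitin ligase for Notch, rose by 1.07 ± 0.18 and 0.85 ± 0.15 in the same fits, and Numb, an adaptor that limits Notch, by 1.47 ± 0.30 and 1.14 ± 0.24.

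Other known Notch targets split. Of 6 tested, 3 rose and 0 fell as counted, and 2 rose with the trend removed. Heyl, the third HEY family member and known from smooth muscle, was at 4.56, 4.09 and 3.98 CPM in the WT libraries and 27.8, 7.47 and 20.4 CPM in the TET2KO libraries, with no overlap. Its log2 fold change was 2.14 ± 0.44 (edgeR adjusted p = 0.00676) and its trend-removed value 0.55 ± 0.20 (edgeR adjusted p = 0.0527). Nrarp, a feedback inhibitor induced by Notch, was at 2.98, 3.47 and 2.97 CPM in the WT libraries and 6.83, 4.20 and 4.64 CPM in the TET2KO libraries. It rose by 0.73 ± 0.26 as counted (edgeR adjusted p = 0.0398), and its value with the trend removed was 0.34 ± 0.20 (edgeR adjusted p = 0.188). Efnb2, the ephrin ligand of arteries, rose by 1.72 ± 0.34, and by 0.74 ± 0.20 with the trend removed (edgeR adjusted p = 0.0153). Hes1, a HES family repressor, was at 17.4, 19.6 and 19.9 CPM in the WT libraries and 14.9, 20.5 and 20.7 CPM in the TET2KO libraries, with overlapping groups and a log2 fold change of -0.02 ± 0.18 (edgeR adjusted p = 0.93). Its trend-removed value of 0.73 ± 0.14 passed (edgeR adjusted p = 0.00525).

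**Figure D5:**
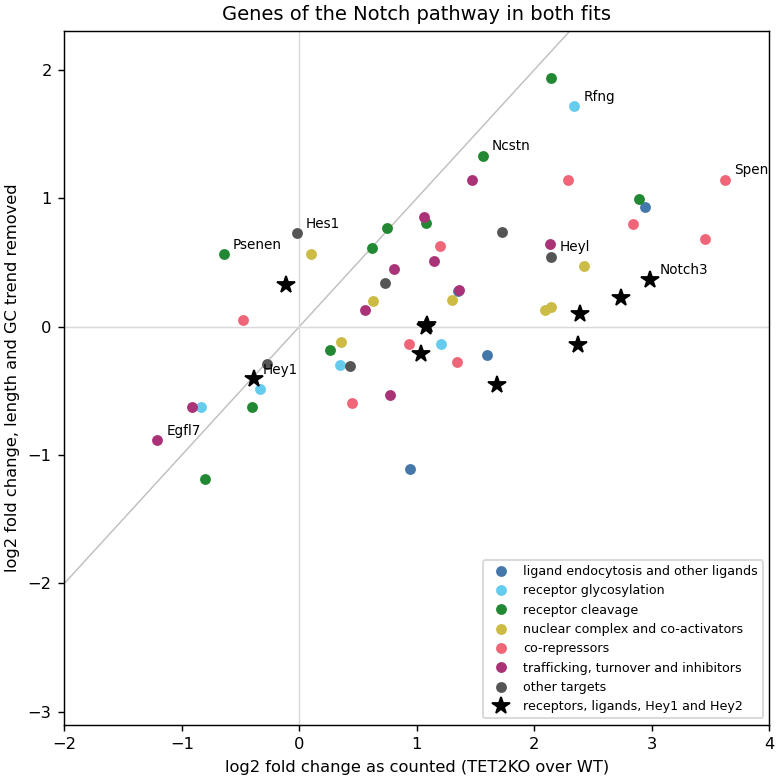
Log2 fold change of TET2KO over WT as counted (x axis) and with the length and GC trend removed (y axis) for 51 other tested Notch genes, coloured by role, and for the 4 receptors, the 4 ligands, Hey1 and Hey2 (stars); the grey diagonal marks equal values. Ncstn and Rfng stay high on both axes, Egfl7 stays low on both, Hes1 and Psenen lie above 0 on the y axis only, and the stars of the receptors and ligands lie near 0 on the y axis.

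Genes with the pattern most like that of Notch1, Notch3, Dll4 and Hey2 were found by Pearson's r of log2 CPM over the 6 libraries, which fall into groups that differ for most genes, so high values were common. Notch1 was closest to Usf3 and Herc2 (r = 0.998 for both), with 988 tested genes at 0.95 or more. Notch3 was closest to Fat1 and Hipk2 (r = 0.999 for both), with 1878 such genes, and Dll4 to Nedd4l and Vps39 (r = 1.000 and 0.999), with 3500. Hey2 had 3 genes at that likeness, led by Ubox5 and Gdpgp1 (r = 0.963 and 0.955).

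In the authors' deposited table, the log2 fold changes were 2.67 for Notch1, 2.92 for Notch3, 2.31 for Notch4, 2.33 for Jag2, 0.98 for Dll4, -0.44 for Hey1 and -0.17 for Hey2. The authors' deposited table of significant genes holds 6254 genes, among them 7 of the 10 described here. Dll4, Hey1 and Hey2 are not in it, and the smallest absolute log2 fold change it lists is 1.00. Dll4, at 0.98, had an authors' DESeq2 adjusted p of 0.000167, and Hey1 and Hey2 had 0.182 and 0.618. Where another annotated gene overlaps a member, reads of the pair may not be told apart, since the sources that were used do not give the strand setting. On the opposite strand such genes were 0610009E02Rik and Gm13568 at Notch1, Gm17276 at Notch3, Gm20462 at Notch4, A930024N18Rik at Dll1 and Gm14207 at Dll4. On the same strand, which a strand setting would not separate, they were Mir6996 at Notch1, Gm42819 and Gm42820 at Notch2 and Mir6941 at Jag2.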

How the data were processed

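RNA of 6 heart libraries (3 WT, 3 TET2KO, batch label 1 for all) was processed by the submitters with STAR 2.5.2b, Trimmomatic 0.36, DESeq2, featureCounts and Subread 1.5.2 on GRCm38 and mm10, per the submitters' processing notes. Neither the annotation release nor the strand setting is given in the sources that were used. The files deposited by the authors are raw counts of reads for each Ensembl gene, not normalized, and TPM values with the same total per library. A table of the authors' comparison gives log2 fold changes (TET2KO over WT) and p-values, per the file headers, beside a normalised signal, the deposited counts divided by 1 size factor per library. All per-sample columns were matched to a sample (0 unmatched).

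The counts were tested with edgeR 4.0.16 (R 4.3.3) by the quasi-likelihood test, robust, with TMM factors, filterByExpr (minimum count 10), no term but group, and Benjamini-Hochberg adjustment at 0.05. SE values were worked back from the test. The trend on log2 transcript length and GC content was a smooth surface per library (mgcv 1.9.3, basis size 6 per axis) on log2 CPM with a prior count of 2, entered as offsets; it also takes out real differences that follow length or GC. Lengths and positions are from GENCODE M21 (GRCm38), to which 48970 of 49315 gene IDs matched. The fits were tested on simulated data. Intervals cover counting error only. Exact permutation tests used scipy 1.17.1.

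The members and lists were chosen with earlier results of these data known. Named genes are the 10 members, Tet2, Cdh5 and Pecam1, Hes1, Heyl, Nrarp and Rbpj, up to 3 other Notch genes per role with the smallest p past the test, and the 2 genes closest in pattern to each of Notch1, Notch3, Dll4 and Hey2 whose mean log2 CPM was 1 or more, leaving out predicted genes, clone names and pseudogene symbols; Psenen was added after its values were seen, and some genes the rule takes are not reported here. A value that passed in either fit and changed sign under an alternative counts as reversed. Alternatives were DESeq2 1.42.0, limma-voom (limma 3.58.1), other scalings and filters, log2(TPM + 1) and log2(TPM + 0.1), the trend removal, the replicate block and leaving out each library.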

Additional observations from a re-analysis of the deposited data

How the results depend on the processing

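The count of 8 receptors and ligands higher was the same with DESeq2, total library size, upper-quartile factors, no filter on low counts, at least 1 CPM in 3 libraries, and log2(TPM + 1) or log2(TPM + 0.1) with limma. It was 3 with limma-voom, 2 on log2(TPM + 1) without a filter, 0 with the trend removed, 1 with merged exon length in the trend, and 4 (without WT replicate 3) to 9 (without TET2KO replicate 2, 1 of them lower) when 1 library was left out. It was 5 without WT replicate 1, WT replicate 2, TET2KO replicate 1 or TET2KO replicate 3. With the trend removed and 1 library left out, calls among all 10 genes in either direction were 0 to 5. The 5, without TET2KO replicate 2, were 3 higher (Notch1, Notch3 and Hey2) and 2 lower (Dll4 and Hey1). Over 25 alternatives, 250 values of single genes came out as 151 on the same side of the test, with no called value changing sign, 60 no longer past it, 2 newly past it and 37 reversed; the cause was not tested. All-gene calls were 9037, against 5559 on log2(TPM + 1) without a filter, 6133 to 11178 with 1 library left out and 4019 to 8653 with the trend removed as well; the other Notch genes had 37 calls, against 23 with the trend removed by either length, 24 to 46 with 1 library left out and 16 to 32 with both. The trend-removed value had the other sign for Notch2 (-0.45, and -0.050 with merged exons), Notch4 (-0.15), Jag1 (-0.0058) and Dll4 (-0.22). With merged exons, Notch4 (0.25), Jag1 (0.64) and Dll4 (0.34) kept the sign they had as counted and did not pass. With 1 library left out, with and without the trend, values ranged from -0.71 to 2.28 for Notch2, -0.22 to 2.82 for Notch4, -0.20 to 1.43 for Jag1, -0.040 to 2.73 for Jag2, -0.12 to 1.38 for Dll1, -0.33 to 1.22 for Dll4 and -0.20 to 0.54 for Hey2, with the values below 0 from the trend-removed fits (for Hey2, as counted).

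Leaving out 1 library turned the sign of the log2 difference for 3 ratios that no test called: Dll4 to Jag1 ranged from -0.21 to 0.25, Notch4 to Notch1 from -0.45 to 0.092 and Hey2 to Hey1 from -0.027 to 0.69. Relative to the endothelial markers, log2(TPM + 1) gave -0.28 for Notch1 and -0.83 for Notch2, the trend-removed values were -0.43 for Notch1, -0.92 for Notch2, -0.26 for Notch3, -0.72 for Notch4 and -0.47 for Jag2, and Notch2 ranged from -0.037 to 0.70 with 1 library left out.

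The replicate numbers were not treated as pairs in the main fit. Same-numbered libraries deviated from their group means with correlations of 0.039, -0.231 and -0.013, and differently numbered ones with -0.269 to 0.261. Deviations within a group of 3 depend on each other, so these values cannot decide whether the numbers pair the samples. With the replicate block, 7618 genes, 8 of the 10 members and 31 of the other Notch genes were called. With the trend removed and the replicate block, 5722 genes, 0 members and 24 other Notch genes were called, with Notch2 at -0.41, Notch4 at -0.15, Jag1 at -0.033 and Dll4 at -0.22. Depth limits Dll1 and Notch2 most, with 15 and 22 reads in their lowest library.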
